A study of Mus musculus with 12 samples.

Results

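A set of 9 genes that write, copy, or remove DNA methylation was followed through the 12 mRNA-Seq libraries: the DNA methyltransferases Dnmt1, Dnmt3a, and Dnmt3b, their partners Dnmt3l and Uhrf1, the dioxygenases Tet1, Tet2, and Tet3, and the glycosylase Tdg. They were chosen by name, and all 9 were found once each among the 34245 genes of the deposited table. Every library was made from a pool of 30 mouse blastocysts, from F1 (C57Bl6 x CBA/W) females mated with F1 males. The embryos were isolated at the 2-cell stage (E1.5) and cultured in KSOM + AA, an embryo medium with amino acids that controls and treated embryos shared. At E3.5 they received either the solvent DMSO alone (control) or SB220025 at 20 µM, a compound that inhibits the kinase p38-MAPK (p38-MAPKi), for 4, 7, or 10 h. Each of the 6 groups had 2 libraries. The comparisons asked whether these genes changed with time in control embryos, and whether p38-MAPKi changed them at each time point. Whole blastocysts were sequenced, so trophectoderm and inner cell mass (ICM) were measured together, and fewer cells of a type cannot be told apart from less RNA per cell. No source used here says whether the 2 pools of a group were cultured on different days, so the p-values measure the spread between pools. At 4 h, and in controls from 4 to 7 h, that spread was taken from genes of like level, not from each gene.

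DNA methylation in mammals sits mostly on the cytosine of CpG dinucleotides. DNMT1 copies it onto the new strand after replication and is brought to half-methylated sites by UHRF1, while DNMT3A and DNMT3B place it on unmethylated DNA and DNMT3L, which has no catalytic activity of its own, stimulates them. TET1, TET2, and TET3 oxidise methylated cytosine, and TDG cuts the most oxidised forms out of DNA for repair. The blastocyst is known as the stage at which methylation inherited from the gametes is near its lowest, before the new pattern is laid down around implantation.

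Library totals, recovered from the deposited values, ran from 11242313 to 24457312 reads. The smallest library, p38-MAPKi replicate 1 at E3.5 + 7 h, had 14317 genes with a read against 16657 to 17957 in the others. Markers of the blastocyst lineages were present. Of 8 trophectoderm markers, 7 (all but Elf5) had at least 1 RPKM (reads scaled to transcript length and library depth) in every library. All 7 epiblast markers reached it outside p38-MAPKi at E3.5 + 7 h, where Prdm14 was below it, and 5 of 7 primitive endoderm (PrE) markers reached it, with Sox7 and Foxa2 below. None of 5 cumulus and oviduct markers had 1 RPKM in both libraries of any group, and of 6 oocyte and 4 blood markers no more than 1 each did (Zp3 and Cd68).

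In control embryos the genes fell into levels that kept nearly the same order in every library. Uhrf1 (34.3 ± 3.63 RPKM, SD, n = 6 control libraries), Dnmt3l (33.0 ± 2.32), and Dnmt3b (31.0 ± 3.19) were highest, and their ranges overlapped, so these 3 were not ordered among themselves. Tet2 followed with 24.8 ± 1.94 RPKM and Dnmt1 with 18.2 ± 1.76. Neither of them overlapped the other, and only Tet2 met the group above, since its highest library (28.3 RPKM) exceeded the lowest of Dnmt3b (26.0). Tet1 (8.55 ± 0.973) and Dnmt3a (6.36 ± 0.943) overlapped each other and lay well below Dnmt1. Tdg (3.03 ± 0.377) and Tet3 (1.42 ± 0.337) were lowest, Tet3 ranked 9th and Tdg 8th in all 12 libraries. Among the tested genes of the all-time comparison these levels ran from the 13.7th percentile (Tet3) to the 85.0th (Uhrf1), so Tet3 was measured near the detection filter, with 150 to 786 reads per library, and Tet2 with 2122 to 11155.

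**Figure D1:**
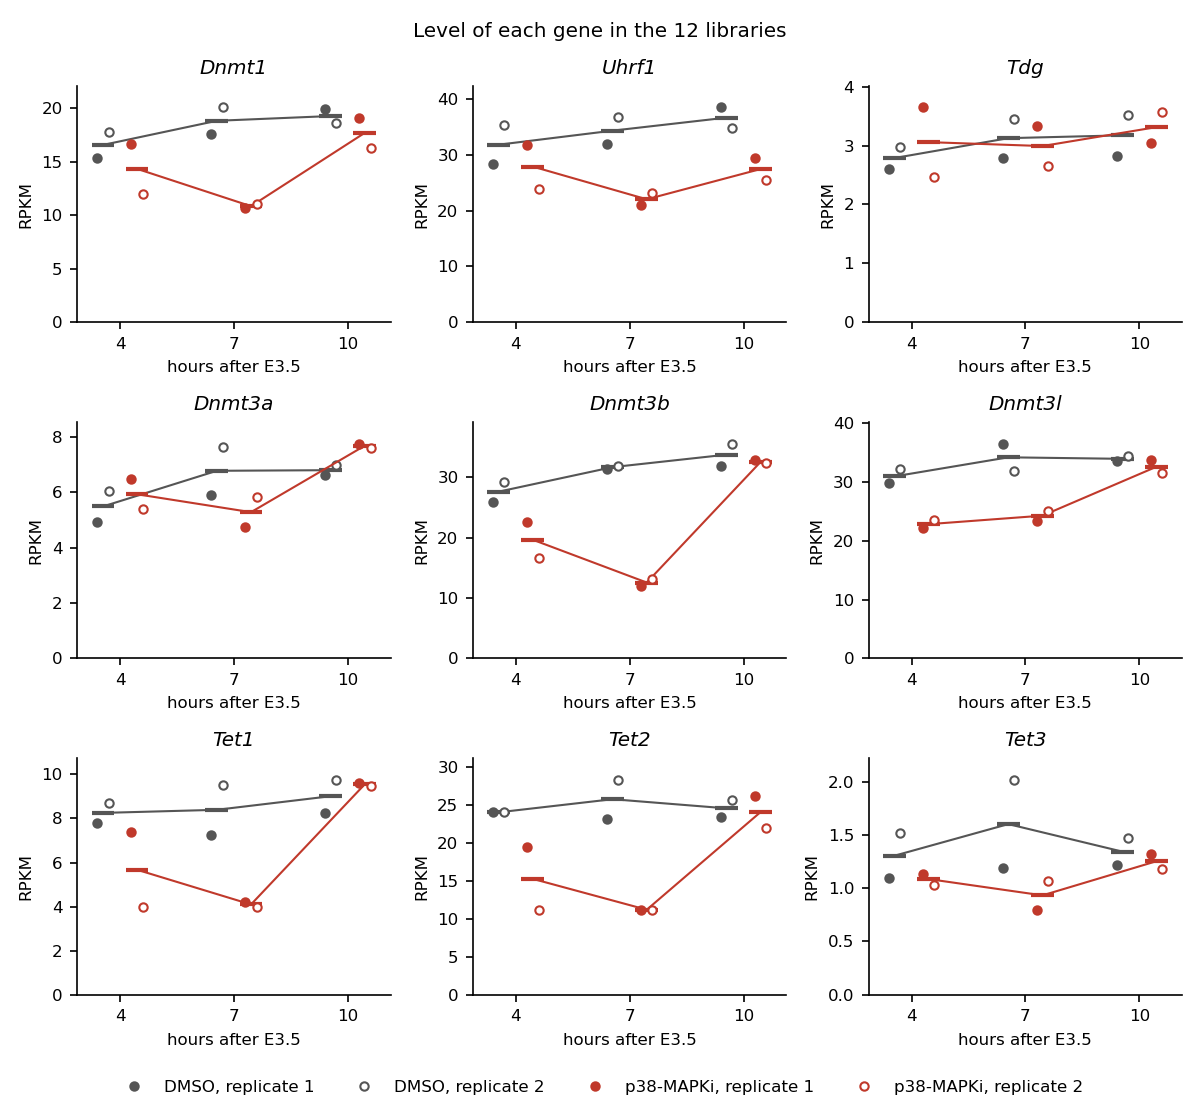
Each panel plots RPKM (vertical axis, from 0) of a gene in the 12 libraries against hours after E3.5. Grey points are DMSO and red points p38-MAPKi, with filled and open points for replicates 1 and 2; short bars are means of 2 libraries, and thin lines join the means. For Dnmt3b the 2 treated points at 7 h (12.02 and 13.11 RPKM) lie below all 6 control points (26.0 to 35.5 RPKM), and at 10 h treated and control points overlap.

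Over time in control embryos no gene of the group changed at the threshold (adjusted p under 0.05, limma). All 9 had a higher mean log2 RPKM at 10 h than at 4 h, in a comparison where the median of all genes was also higher by 0.14 on the log2 scale. Dnmt3b, at 26.0 and 29.2 RPKM after 4 h, 31.4 and 31.9 after 7 h, and 31.9 and 35.5 after 10 h, was the single gene with an unadjusted p under 0.05 from 4 to 10 h (log2 fold change 0.29, SE 0.121, adjusted p = 0.302), which 13.2% of all genes tested reached in that direction. Its control libraries at 10 h did not overlap those at 4 h, nor did those of Dnmt1, Dnmt3a, and Dnmt3l; with 42.3% of all genes also higher without overlap, 4 of 9 is close to the background. The other 4-to-10 h changes ran from 0.03 (Tet2) to 0.32 (Dnmt3a) on the log2 scale. Between 4 and 7 h and between 7 and 10 h, 0 of 9 genes passed at either p under 0.05, adjusted or not, and voom on recovered reads also called 0. Of all genes tested, the adjusted test called 0.492% from 4 to 7 h, 0.0552% from 7 to 10 h, and 0.471% from 4 to 10 h.

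The largest differences with p38-MAPKi were at E3.5 + 7 h. Dnmt3b fell to 0.397 of its control level and Tet2 to 0.437, and these were the 2 of 9 genes past the adjusted threshold, against 1.2% of all genes called lower. Of the 9, 6 were lower at an unadjusted p under 0.05 (background 17.7%), and for 8 of the 9 both treated libraries lay below both control libraries (background 38.7%), Tdg being the exception. At E3.5 + 4 h and + 10 h none of the 9 passed the adjusted test. The 4 h comparison put 4 genes (Dnmt3b, Dnmt3l, Tet1, and Tet2) lower without overlap (background 13.7%) and at an unadjusted p under 0.05 (background 3.03%). The 10 h comparison put Uhrf1 alone there, and 1 of 9 is no more than the background of 29.6% without overlap and 11.6% at that p. In limma without the variance trend, 1 of the 9 was lower at an unadjusted p under 0.05 at 4 h. That setting gave 846 of 10781 genes such a p in either direction. The median of all tested genes was itself shifted by -0.14 at 7 h and 0.07 at 4 h (log2), and values below are as deposited, without that shift removed.

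**Figure D2:**
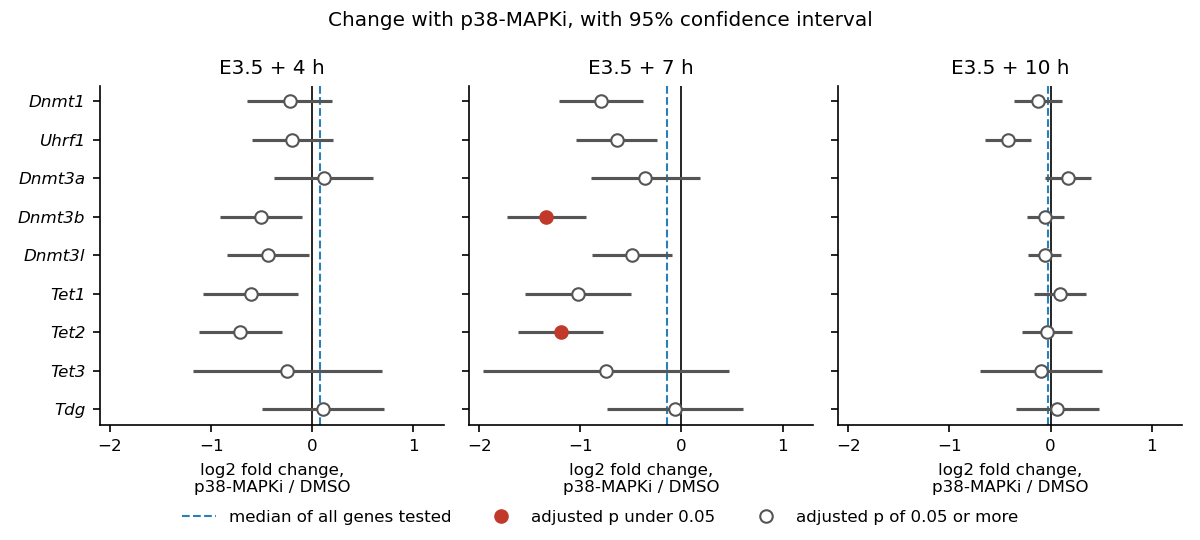
Log2 fold change of p38-MAPKi over DMSO (horizontal axis) for each gene at the 3 time points, with its 95% confidence interval from limma; filled red points have an adjusted p under 0.05, and the dashed line is the median of all genes tested. At 7 h all 9 points lie below 0 and those of Dnmt3b (-1.33) and Tet2 (-1.20) are filled; at 10 h all points but that of Uhrf1 (-0.42) lie between -0.13 and 0.18.

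Among the enzymes that set up methylation anew, Dnmt3b had the widest change. In treated embryos it was at 22.6 and 16.7 RPKM after 4 h, 12.02 and 13.11 after 7 h, and 32.8 and 32.3 after 10 h. The control libraries stood at 26.0 and 29.2, 31.4 and 31.9, and 31.9 and 35.5 RPKM at these times. Treated libraries were thus below both controls at 4 and 7 h, and within the range of the controls at 10 h. The log2 fold change was -0.50 (SE 0.207, adjusted p = 0.327) at 4 h, -1.33 (SE 0.175, adjusted p = 0.0379) at 7 h, and -0.05 (SE 0.077, adjusted p = 0.759) at 10 h. At 7 h its unadjusted p was the 9th smallest of 10940 genes. Dnmt3b lies on chromosome 2 (153649450 to 153687730, plus strand, GRCm38), and the rodent-specific Dnmt3c beside it, a close relative with which reads could be shared, had 0 to 16 reads per library.

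Dnmt3a, which shares the catalytic role, did not follow Dnmt3b. Its treated libraries had 6.48 and 5.40 RPKM after 4 h, 4.75 and 5.82 after 7 h, and 7.76 and 7.62 after 10 h, beside control values of 4.93 and 6.06, 5.92 and 7.64, and 6.62 and 6.99. At 4 h the groups overlapped, at 7 h treated lay just under control, and at 10 h both treated libraries were above both controls, as for 22.6% of all genes tested. The log2 fold changes were 0.11 (adjusted p = 0.915), -0.36 (SE 0.239, adjusted p = 0.349), and 0.18 (SE 0.0948, adjusted p = 0.351), none past the threshold.

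Dnmt3l, the partner without catalytic activity, was at 22.2 and 23.5 RPKM in treated and 29.8 and 32.1 in control embryos after 4 h. After 7 h the values were 23.4 and 25.1 against 36.5 and 31.9 RPKM, and after 10 h 33.7 and 31.4 against 33.5 and 34.3 RPKM. The treated libraries were lower without overlap at 4 and 7 h and overlapped the controls at 10 h. Its log2 fold changes of -0.44 (SE 0.205, adjusted p = 0.457) and -0.49 (SE 0.175, adjusted p = 0.113) did not pass, nor did -0.06 at 10 h (adjusted p = 0.680). Dnmt3l was the gene whose 4 h and 7 h differences were most alike (difference -0.05, 95% confidence interval -0.56 to 0.45).

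The copying pair Dnmt1 and Uhrf1 had smaller 7 h differences than Dnmt3b and larger ones than Dnmt3l and Dnmt3a. Dnmt1 was at 16.7 and 11.97 RPKM in treated embryos against 15.3 and 17.8 in control after 4 h, at 10.7 and 11.03 against 17.6 and 20.1 after 7 h, and at 19.1 and 16.3 against 19.9 and 18.7 after 10 h. Only the 7 h libraries were apart, with a log2 fold change of -0.79 (SE 0.184) that narrowly missed the threshold (adjusted p = 0.0538). At 4 h it was -0.22 (adjusted p = 0.779) and at 10 h -0.13 (SE 0.0988, adjusted p = 0.520). Uhrf1 had 31.8 and 24.0 RPKM in treated against 28.3 and 35.3 in control embryos after 4 h, 20.97 and 23.1 against 32.0 and 36.7 after 7 h, and 29.5 and 25.4 against 38.5 and 34.9 after 10 h. Uhrf1 was the member still lower without overlap at 10 h. Its log2 fold change was -0.20 (adjusted p = 0.801), -0.64 (SE 0.177, adjusted p = 0.0681), and -0.42 (SE 0.0957, adjusted p = 0.0939) at the 3 times, past an unadjusted 0.05 at 7 h and at 10 h but not past the adjusted threshold.

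Among the erasers, Tet2 (chromosome 3, 133463679 to 133545139, minus strand) had the largest 7 h difference and Tet1 the next. Tet2 was at 19.4 and 11.1 RPKM in treated embryos after 4 h, 11.2 and 11.2 after 7 h, and 26.2 and 21.9 after 10 h, while the 6 control libraries lay between 23.2 and 28.3. The 4 treated libraries at 4 and 7 h were below every control library, and at 10 h the groups overlapped. The log2 fold changes were -0.71 (SE 0.210, adjusted p = 0.0612), -1.20 (SE 0.187, adjusted p = 0.0456), and -0.03 (SE 0.104, adjusted p = 0.890). Tet1 had 7.36 and 3.98 RPKM after 4 h, 4.22 and 3.97 after 7 h, and 9.63 and 9.49 after 10 h with p38-MAPKi, where controls had 7.26 to 9.75. Its treated 7 h level was near 0.492 of control (log2 -1.02, SE 0.233, adjusted p = 0.0532), with -0.61 (SE 0.240, adjusted p = 0.293) at 4 h and 0.09 (SE 0.107, adjusted p = 0.684) at 10 h.

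In both Tet genes the 2 treated libraries at 4 h were far apart. Replicate 2 was near the treated 7 h level. Replicate 1 was within the range of the control libraries for Tet1 (7.36 RPKM) and below the lowest of them for Tet2 (19.4 against 23.2 RPKM), with a log2 difference between the replicates of -0.89 for Tet1 and -0.80 for Tet2. Genes of like length (within 1.25 times) differed between these libraries by a median of -0.44 and -0.45, and all genes by -0.05. Without replicate 1 of the treated 4 h embryos, Dnmt3b, Tet1, and Tet2 passed the adjusted test at 4 h (adjusted p = 0.0477, 0.00626, and 0.000612) and 1.97% of all genes were called lower, where the lone treated library is assumed to vary like the others. Without replicate 2 the adjusted p was 0.998 for each of the 3.

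Tet3 and Tdg, the lowest in level, were measured least precisely. Tet3 was at 0.799 and 1.06 RPKM in treated and 1.19 and 2.02 in control embryos after 7 h, and its log2 fold change of -0.75 had a confidence interval from -1.96 to 0.47 (adjusted p = 0.380). At 4 and 10 h its groups overlapped, with -0.25 (adjusted p = 0.901) and -0.10 (adjusted p = 0.864). Tdg, which acts after the TET enzymes, had treated libraries between 2.47 and 3.65 RPKM and control libraries between 2.60 and 3.52, overlapping at all 3 times. Its log2 fold changes were 0.11, -0.06, and 0.07 (adjusted p = 0.933, 0.905, and 0.862), with a 7 h confidence interval of -0.73 to 0.60 that still allows a difference as large as that of Uhrf1.

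Whether these effects differed between time points was tested as an interaction. From 7 to 10 h the effect of p38-MAPKi moved up by 1.28 (SE 0.152) for Dnmt3b, 1.16 (SE 0.199) for Tet2, 1.11 (SE 0.235) for Tet1, 0.67 (SE 0.182) for Dnmt1, and 0.43 (SE 0.158) for Dnmt3l on the log2 scale. These 5 had an unadjusted p under 0.05, as did 15.9% of all genes in that direction. Adjusted p-values were 0.0646, 0.0646, 0.0710, 0.0839, and 0.140, so 0 of 9 passed; a single gene of the table did (0.00877%). Dnmt3b had the second smallest unadjusted p of 11400 genes in this comparison. From 4 to 7 h, Dnmt3b alone had an unadjusted p under 0.05 (-0.83, SE 0.263, adjusted p = 0.661, background 4.84% in that direction), and again a single gene of the table passed the adjusted test (0.00884%). Replicate 1 or 2 of the treated 7 h embryos or replicate 1 of the control 7 h embryos, when left out, changed the 7-to-10 h count to 1, 4, and 3 of the 9, with 0.0976%, 18.8%, and 3.08% of all genes called higher. With the length trend removed, the 7-to-10 h change was 1.05 for Dnmt3b, 0.50 for Tet2, 0.49 for Tet1, 0.29 for Dnmt1, and 0.42 for Dnmt3l.

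For the effect common to the 3 times, 8 of 9 genes had negative estimates and 6 had an unadjusted p under 0.05 (background 13.9% lower), but limma called none of them after adjustment, against 2.67% of all genes. The 4 nearest to the threshold were Uhrf1 at -0.42 (SE 0.107, adjusted p = 0.0551), Dnmt3b at -0.63 (SE 0.168, adjusted p = 0.0595), Dnmt3l at -0.33 (SE 0.0884, adjusted p = 0.0600), and Tet2 at -0.65 (SE 0.176, adjusted p = 0.0627). Dnmt1 (-0.38, adjusted p = 0.103) and Tet1 (-0.51, adjusted p = 0.125) followed. Dnmt3a (-0.02) and Tdg (0.04) lay near 0. Voom on recovered reads called 2 of them, Uhrf1 and Tet2, and 1.7% of all genes lower. Limma called 4 of the 9 without replicate 1 of the treated 4 h embryos (3.31% of all genes lower), 2 without replicate 1 of the treated or of the control 10 h embryos (1.2% and 1.07%), and 1 without replicate 1 of the control 4 h embryos (0.536%). With the length trend removed, Dnmt3b, Dnmt3l, Uhrf1, and Tet2 were called, and the estimate was -0.25 for Tet1, -0.24 for Dnmt1, and -0.37 for Tet2. At the single times the corresponding shares of called genes were 0.909% at 4 h and 0.803% at 10 h in either direction, and voom called 0 of the 9 at 4 h and Uhrf1 at 10 h (2.59% of all genes lower).

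The calls of Dnmt3b and Tet2 at 7 h depended on the settings. Both were lost in limma without the variance trend (adjusted p = 0.158 for each), after centring each library on its median (0.0694 for each), after removal of the trend on transcript length (0.101 and 0.120), and without replicate 2 of the control 7 h embryos (0.222 and 0.303). In each of these 4 settings limma called 0 genes of the whole table, and 5 of the 9 stayed at an unadjusted p under 0.05. In the other settings both were called, with 5 of the 9 past the threshold without treated replicate 2 (19.4% of all genes called lower), and without the shallow treated replicate 1 their adjusted p was 0.00284 and 0.00635. All estimates for Dnmt3b at 7 h lay between -1.40 and -1.10, and those for Tet2 between -1.34 and -0.57.

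The values moved together with transcript length at 7 h. Transcript length here and elsewhere means exon length, which for members other than Tet1 is that of all annotated exons merged over transcripts. For Tet1 it was a nearby length that gave whole reads (15.1 kb). Over all genes the median log2 fold change ran from 0.53 at exon lengths up to 1 kb to -0.67 at those over 15 kb. The class over 15 kb had 230 genes and holds Tet1, Tet2, Tet3, and Dnmt3a. Dnmt3b (5.11 kb of exon) was below the lower quartile of genes within 1.25 times its length (median -0.24, quartiles -0.53 and 0.06). Tet2 (16.9 kb) lay below the lower quartile of its own class (median -0.63, quartiles -0.85 and -0.40), and so did Tet1, Dnmt1, Uhrf1, and Dnmt3l of theirs. Dnmt3a (16.6 kb) lay above the upper quartile of its class (-0.40) and Tdg was above the median of genes as long as itself (-0.26). With the length trend removed, the 7 h log2 fold change was -1.10 for Dnmt3b, -0.57 for Tet2, -0.43 for Tet1 and Dnmt1, -0.47 for Uhrf1, and -0.46 for Dnmt3l, and that of Dnmt3a became positive (0.26, adjusted p = 0.421). At 4 h the class medians ran from 0.23 for 1 to 2 kb to -0.25 over 15 kb, and removal of the trend gave -0.39 for Tet1, -0.47 for Tet2, -0.54 for Dnmt3b, and -0.57 for Dnmt3l. At 10 h the class medians ran only from -0.04 to 0.02. The part of length in the differences was not tested beyond this removal.

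**Figure D3:**
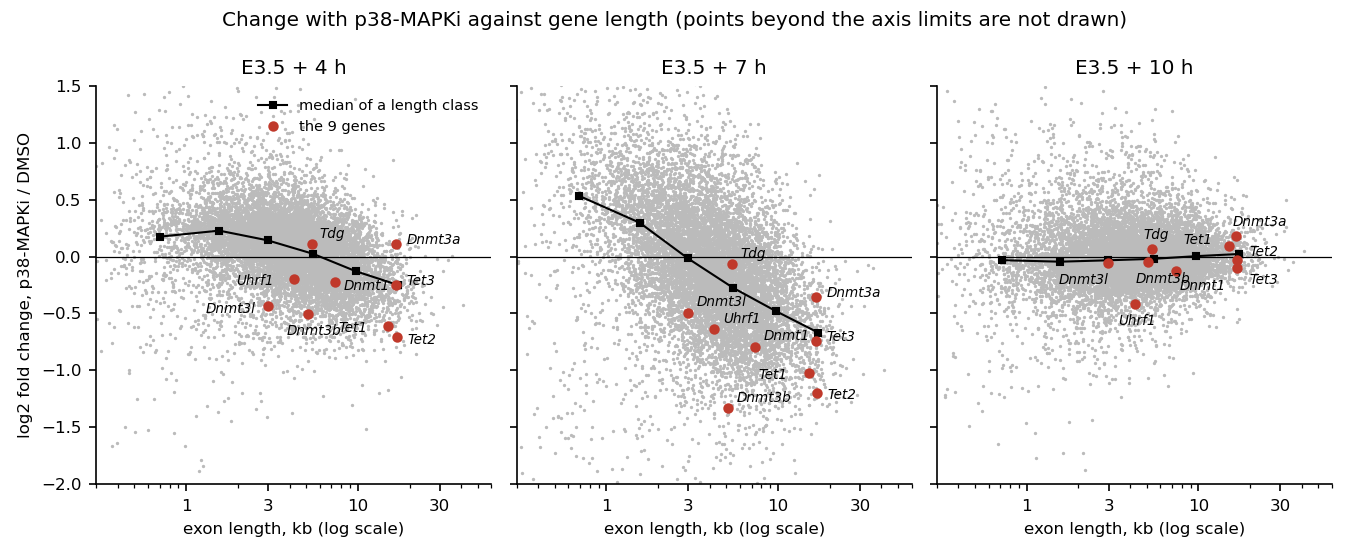
Log2 fold change of p38-MAPKi over DMSO (vertical axis) against exon length in kb (log scale) at the 3 time points. Grey dots are all genes tested, black squares the medians of 6 length classes, and red points the 9 genes. At 7 h the medians descend from 0.53 to -0.67 with length, Dnmt3b lies at -1.33 where its class has a median near -0.28, and Dnmt3a lies above the median of the longest class.

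Ratios of levels within a library do not depend on how the library is scaled, but pairs of unlike length still carry the length trend. At 7 h the median log2 fold change of genes of like length was -0.24 for Dnmt3b, -0.63 for Dnmt3a, and -0.02 for Dnmt3l. It was -0.63 for Tet2, -0.59 for Tet1, -0.38 for Dnmt1, and -0.18 for Uhrf1. The part of length in the ratios was not tested. The pairs were chosen after their values were seen and were not tested. Dnmt3b was 4.17 to 5.30 times the RPKM of Dnmt3a in the 6 control libraries. With p38-MAPKi the ratio was 3.49 and 3.09 after 4 h, 2.53 and 2.25 after 7 h, and 4.22 and 4.23 after 10 h. The 4 treated libraries at 4 and 7 h were below all controls, and those at 10 h were below both controls of that time (4.82 and 5.08) and above only the lowest control, a 7 h library (4.17). Tet2 and Tet1, by contrast, kept ratios of 2.31 to 3.20 in all 12 libraries, with treated and control values overlapping when pooled and at 4 and 10 h, while at 7 h the treated ratios (2.65 and 2.82) were below the controls (3.20 and 2.97). The ratio of Dnmt1 to Uhrf1 was 0.477 to 0.550 in 10 libraries and 0.648 and 0.640 in treated embryos at 10 h. Dnmt3b and Dnmt3l stood near parity (0.711 to 1.03) in all libraries but the 2 treated ones at 7 h, at 0.514 and 0.522.

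**Figure D4:**
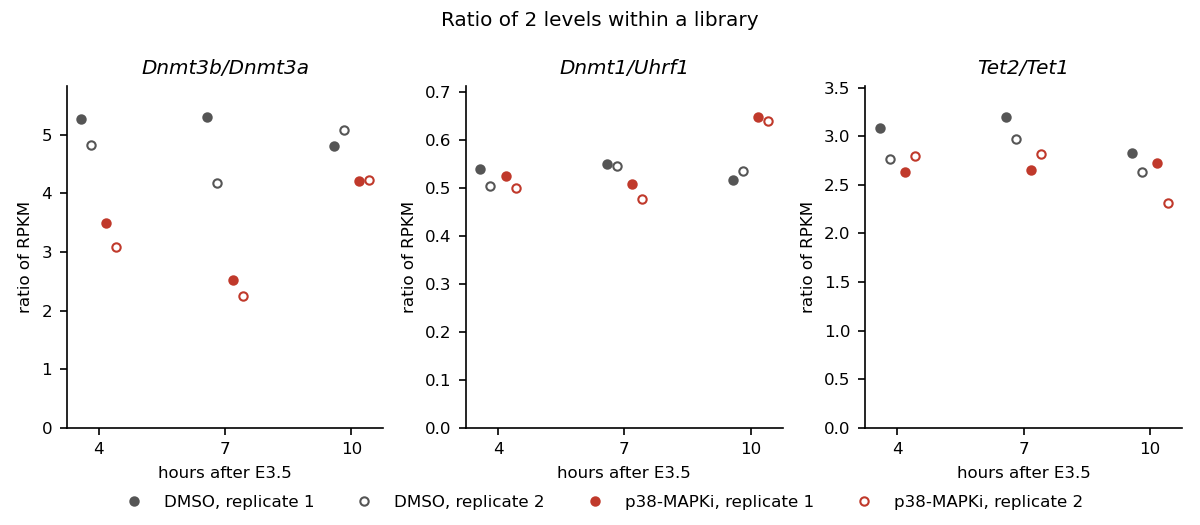
Ratio of the RPKM of a pair of genes within each library (vertical axis, from 0) against hours after E3.5; grey is DMSO, red p38-MAPKi, filled and open points replicates 1 and 2. The Dnmt3b/Dnmt3a ratio is lowest in the treated libraries at 7 h (2.53 and 2.25), the Dnmt1/Uhrf1 ratio is highest in the treated libraries at 10 h (0.648 and 0.640), and Tet2/Tet1 overlaps between groups at 4 and 10 h but not at 7 h.

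The promoters of the 2 genes called at 7 h and of Dnmt3a, which was not, are shown to let the CpG content at their starts be compared. CpG is the dinucleotide that these enzymes act on. The sequences are the 250 bases before the annotated start on the strand of the gene, 5′ to 3′, from RefSeq on GRCm38.p6, with CpG dinucleotides in capitals. For Dnmt3a the most upstream of 3 starts is shown, and the windows of the other two hold 40 and 15 CpG. The RefSeq start of Tet2 lies within the span of the gene given above, and its window holds no base of a GENCODE exon.
Dnmt3b (chr2:153649199-153649448, plus strand): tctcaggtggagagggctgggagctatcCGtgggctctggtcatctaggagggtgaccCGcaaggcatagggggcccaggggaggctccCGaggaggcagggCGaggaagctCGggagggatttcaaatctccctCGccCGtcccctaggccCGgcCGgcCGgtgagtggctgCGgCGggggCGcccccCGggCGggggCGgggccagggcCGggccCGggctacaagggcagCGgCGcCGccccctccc
Tet2 (chr3:133544391-133544640, minus strand): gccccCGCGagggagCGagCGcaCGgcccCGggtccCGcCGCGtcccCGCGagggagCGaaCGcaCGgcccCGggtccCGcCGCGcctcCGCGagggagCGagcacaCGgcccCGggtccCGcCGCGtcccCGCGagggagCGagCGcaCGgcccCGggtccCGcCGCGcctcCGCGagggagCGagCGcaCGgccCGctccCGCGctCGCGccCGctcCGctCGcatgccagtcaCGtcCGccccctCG
Dnmt3a (chr12:3806730-3806979, plus strand): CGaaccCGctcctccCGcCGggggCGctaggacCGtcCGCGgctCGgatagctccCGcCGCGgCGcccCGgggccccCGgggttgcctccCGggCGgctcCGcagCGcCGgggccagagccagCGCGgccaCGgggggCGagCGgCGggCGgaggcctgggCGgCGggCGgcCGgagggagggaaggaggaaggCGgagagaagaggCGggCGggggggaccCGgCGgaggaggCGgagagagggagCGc
They hold 21, 51, and 38 CpG against a median of 6 over 32851 promoters of the same length, and 16.3%, 0.0670%, and 1.88% of all promoters hold as many. All 9 genes had at least a single start in the RefSeq table, 16 in all, and CpG counts ran from 2 (an upstream start of Dnmt1) to 51. The E2F-type motif TTTNNCGC, searched on both strands, was in 3 of the 16 (1 start of Dnmt1 and both of Uhrf1) and in 4.28% of all promoters. None was in the 3 sequences printed. Methylation of these promoters was not measured.

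The shape of the levels over 12 libraries was compared between genes. Each of 9388 genes with at least 1 RPKM in every library was centred on its own mean log2 value, and the root mean square (RMS) difference from the gene was taken as the measure of likeness. For Tet2, Tet1 was the 11th nearest gene (RMS 0.116) and for Tet1, Tet2 was the 7th, behind Fmnl2 in both cases (0.0870 and 0.0759). Of the group, Tet2 was also the nearest to Dnmt3b (rank 51, RMS 0.160), whose nearest 3 genes were Rin3, Sh3rf1, and Tead1. Uhrf1 had Dnmt1 as 62nd nearest (RMS 0.129) and was led by Kpnb1, Tbc1d23, and AI314180. Uhrf1 in turn ranked 296th for Dnmt1, at the same RMS of 0.129. For the others the closest gene of the group ranked 449th for Tet3 (Uhrf1), 1035th for Tdg (Dnmt3a), 1136th for Dnmt3l (Dnmt1), and 2154th for Dnmt3a (Tdg). The nearest to Dnmt1 were Akap10, Ctnnd1, and Tlk1, and to Dnmt3a Sidt2, Strn4, and Nectin1. Dnmt3l was nearest to Slc25a46, Pspc1, and Ctps2, Tet3 to Papd5, Ddx3x, and Kpna2, and Tdg to Plekhm1, Tmem115, and N4bp1. After Fmnl2, Tet1 had Atf7 and Gm28635 and Tet2 had Frs2 and Cpne1. Beside these RMS differences, the median over all genes was between 0.276 (for Dnmt3a) and 0.513 (for Dnmt3b), and the libraries share their depth and length trends.

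A list of 57 partners of the writers, readers, repair and demethylation genes, and methyl donor genes was in the table, 45 of them were tested at 7 h, and limma called 0 in any of the 9 comparisons. Voom on recovered reads called 9 of the 45 at 7 h (1 higher and 8 lower), beside 4.87% higher and 10.6% lower of all genes. They were Dppa3, which was higher, and 8 that were lower: the histone methyltransferase genes Ehmt1 and Ehmt2, Trim28, a corepressor that works with Zfp57, Zfp57 itself, the CpG-binding Kdm2b, the glycosylase Mbd4, the ligase Lig3, and Ogt, with limma estimates from -1.32 (Mbd4) to -0.48 (Trim28). Voom also called Trim28 lower at 10 h, Xrcc1, a scaffold of base excision repair, higher over all times (1.66% of all genes higher), and Dppa3, Mtrr, and Ogt for the change of the effect from 7 to 10 h (7.42% of all genes in either direction). At 7 h 33 of the 45 had negative estimates, 15 were lower and 2 higher at an unadjusted p under 0.05 (17.7% and 10.7% of all genes), and the median was -0.34 beside -0.14 for all genes. The median of the 9 genes themselves was -0.75. The 2 that were higher were Dppa3, which shields maternal methylation in the zygote (log2 0.94, SE 0.227, adjusted p = 0.0559, from a mean of 1059 RPKM in control to 2043), and Gadd45a, linked to DNA repair and demethylation (0.86, adjusted p = 0.110). Both have short exon lengths (0.892 and 1.76 kb). At 4 h 4 were higher (Xrcc1, Neil1, Gadd45a, and Gadd45g) and 2 lower at that level, against 6.39% and 3.03% of all genes, the lower ones being Zfp57, a zinc finger protein that protects imprints (-0.65, adjusted p = 0.144), and Ogt, the O-GlcNAc transferase that binds TET enzymes (-0.51, adjusted p = 0.339). At 10 h 4 were higher (Mbd6, Xrcc1, Neil1, and Gadd45b) and 5 lower (Trim28, Apex1, Gadd45g, Shmt1, and Shmt2), against 8.26% and 11.6% of all genes.

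Levels of some lineage markers also differed between the groups. The summed RPKM of the 7 PrE markers was 108.6 and 110.4 in the treated 7 h libraries against 136.9 and 165.2 in the controls, that of the 7 epiblast markers was 193.9 and 222.0 against 235.2 and 238.6, and the trophectoderm sum overlapped (2096 and 2237 against 1858 and 2482). Gata6 was the largest part of the PrE sum, at 80.9 and 85.0 RPKM in treated against 101.3 and 129.4 in control embryos at 7 h. At 10 h the PrE sum was higher in treated embryos (146.7 and 154.7 against 137.2 and 146.1). The epiblast sum was lower there (209.7 and 219.7 against 235.0 and 244.1), and at 4 h both sums overlapped. Krt8 and Krt18 made up 76.4 to 85.9% of the trophectoderm sum. Of the markers beside them, Cdx2, Gata3, Eomes, and Id2 were lower without overlap at 7 h (background 38.7%). Elf5 and Tfap2c overlapped there (Tfap2c at 38.7 and 48.1 RPKM in treated against 43.8 and 54.3 in control embryos). At 4 h Tfap2c was higher without overlap (49.1 and 50.1 against 38.9 and 44.8 RPKM). So were Krt8 (570.8 and 572.2 against 476.9 and 509.2) and Krt18 (1048 and 1079 against 908.6 and 989.3). Of the 7 trophectoderm markers tested at 4 h, 3 had negative estimates, and the median was 0.16 beside 0.07 for all genes. After 7 h Cdx2 was at 157.9 and 144.2 RPKM in treated against 236.5 and 190.4 in control embryos. Gata3 was then at 67.2 and 57.2 against 109.8 and 90.1, and Id2 at 31.6 and 33.6 against 93.3 and 49.8. These 3 of the 7 trophectoderm markers tested were lower at an unadjusted p under 0.05 at each of the 3 times. The background was 3.03%, 17.7%, and 11.6% of all genes at 4, 7, and 10 h. Limma called Id2 at 4 h (log2 -0.86, adjusted p = 0.00485), where 0.288% of all genes were called lower. Over all times it called all 3 (-0.38, -0.51, and -0.84, adjusted p = 0.0336, 0.0169, and 0.0117), beside 1.24% of all genes called lower. Of 7 epiblast and 5 PrE markers tested, 2 each were lower at an unadjusted p under 0.05 at 7 h. The background there was 17.7%, and counts this small cannot be set apart from it. Limma called 0 of these markers in the 4 comparisons with control. At 7 h the 6 oocyte markers summed to 3.48 and 7.39 RPKM against 2.52 and 2.69, and the 4 blood markers overlapped (4.33 and 7.64 against 4.80 and 4.83). The blood sum was higher in treated embryos at 4 h (5.54 and 7.43 against 2.96 and 3.30) and lower at 10 h (3.98 and 4.14 against 6.42 and 6.60). Limma called Cd68, the 1 blood marker tested, higher at 4 h (log2 1.06), as 0.621% of all genes. In controls it also called Cd68 higher at 10 h than at 4 h (log2 1.19), as 0.434% of all genes. The part of these markers in the differences of the 9 genes was not tested.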

How the data were processed

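The mRNA of 12 libraries (2 in each of 6 groups) was analysed. The authors trimmed single-end reads with Trim Galore (0.4.1), mapped them with HISAT2 (2.0.5) to GRCm38, quantified genes in SeqMonk, and deposited log2 RPKM values, which are relative to depth and transcript length and carry no spike-in. The use of strand in counting is not given in the sources used here. Genes on the other strand that share exon bases with a member (Dnmt3aos, Aire, Gm42567, and Glt8d2) were at most at 0.412 RPKM.

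Library totals were taken from the deposited value of genes with no read (0.9 of a read), and whole reads (within 0.02) were recovered for 34244 of 34245 genes, for depth and a voom alternative only. Tests were two-sided, made by limma 3.58.1 (lmFit, eBayes with trend; R 4.3.3) on the deposited log2 values of genes reaching 1 RPKM in 2 or more libraries of the fit, and adjusted by Benjamini-Hochberg over all genes tested (threshold 0.05). A fit held 4 libraries for a time point or a pair of control times, 8 for an interaction, and 12 with time as a covariate for the common effect. At 4 h, and for 7 h against 4 h in controls, limma gave every gene the variance of the trend. An exact permutation test of 2 against 2 libraries cannot go below 0.333 and was not used. Scripts were tested on simulated data.

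The 9 genes, the other lists, and the comparisons were chosen with earlier results of these data known. Named are the 9 genes, markers, pathway genes past the threshold (by limma or voom) or in counts up to 5, and the 3 genes nearest to each of the 9. The alternatives were a fit without the trend, median centring, no filter, at least 10 RPKM, log2(RPKM + 1), a single fit over 12 libraries, removal of the length trend (loess, span 0.5, degree 1), the replicate number as a block, voom, and leaving out each library. Python 3.11.15, numpy 2.4.6, pandas 2.3.3, and matplotlib 3.10.9 did the remaining work.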

Additional observations from a re-analysis of the deposited data

How the results depend on the processing

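The number of the 9 genes called at E3.5 + 7 h (2 as reported) was 0 in limma without the trend, 0 after median centring, 0 with the length trend removed, 2 without a filter, 4 with at least 10 RPKM (of 5 tested), 4 with log2(RPKM + 1), 6 in a single fit over 12 libraries, and 5 by voom. In the last 4 of these settings 9.62%, 2.61%, 15.7%, and 10.6% of all genes were called lower. It ran from 0 (without control replicate 2) to 5 (without treated replicate 2) when a library was left out. At 4 h the count stayed at 0 except without treated replicate 1, giving a range of 0 to 3, and at 10 h it was 1 (Uhrf1) by voom. For the common effect (0 as reported) it was 2 after centring, 4 with at least 10 RPKM, 6 in the single fit, 4 without the length trend, 2 by voom (2.23%, 2.45%, 5.94%, 2.53%, and 1.7% of all genes lower), and 0 to 4 when a library was left out. For the change of the effect from 7 to 10 h it was 2 with at least 10 RPKM, 4 by voom (4.3% and 4.67% of all genes higher), and 0 to 4 when a library was left out. In the 3 control comparisons and for 7 h minus 4 h it was 0 in every setting run. Over all genes, calls ran from 0 to 2919 at 7 h (233 as reported), 0 to 424 at 4 h (98), and 0 to 479 at 10 h (88). Tet3 and Tdg had the fewest reads of the 9, with 150 and 201 in their lowest libraries. The causes of these moves were not tested.

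Replicate numbers were not used as pairs, since no label gives them a meaning and the correlation was not over 0.1 at every time. Over 9388 genes the deviations of same-numbered libraries correlated at -0.01 at 4 h, 0.26 at 7 h, and 0.09 at 10 h. With the replicate number as a block, 0 of the 9 were called at 4 h, 5 at 7 h (10.9% of all genes lower), 1 at 10 h (2.11%), and 0 for the common effect, the control comparisons, and the interactions.

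Signs changed only for values that were not called. After median centring the log2 fold change was 0.13 for Tdg at 7 h and 0.033 for Dnmt3a over all times. In the control comparisons it was -0.094 for Tet1 and -0.014 for Tet2 from 4 to 7 h, -0.011 for Dnmt3a and -0.0056 for Tdg from 7 to 10 h, and -0.0028 for Dnmt3l, -0.012 for Tet1, -0.11 for Tet2, and -0.081 for Tet3 from 4 to 10 h. The difference between 7 h and 4 h effects was 0.17 for Dnmt3l and 0.045 for Tdg, and that between 10 h and 7 h was -0.066 for Tdg. With the length trend removed it was 0.26 for Dnmt3a and 0.19 for Tdg at 7 h and 0.25 for Dnmt3a over all times. In the controls it was -0.010 for Uhrf1, -0.098 for Tet1, and -0.017 for Tet2 from 4 to 7 h, -0.0071 for Dnmt1, -0.039 for Dnmt3a, and -0.016 for Tdg from 7 to 10 h, and -0.015 for Dnmt3l, -0.041 for Tet1, -0.13 for Tet2, and -0.11 for Tet3 from 4 to 10 h. The differences of effects were 0.12 for Dnmt3l and 0.11 for Tdg (7 h minus 4 h) and -0.12 for Dnmt3a, -0.0064 for Tet3, and -0.13 for Tdg (10 h minus 7 h).

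Leaving out a library in turn gave ranges that cross 0 at 4 h for Dnmt1 (-0.46 to 0.016), Dnmt3a (-0.036 to 0.26), Uhrf1 (-0.40 to 0.0095), and Tdg (-0.17 to 0.39), at 7 h for Tdg (-0.23 to 0.098), and at 10 h for Dnmt3b (-0.13 to 0.028), Tet1 (-0.029 to 0.21), Tet2 (-0.16 to 0.095), Tet3 (-0.23 to 0.039), and Tdg (-0.093 to 0.23). Over all times they did for Dnmt3a (-0.076 to 0.066) and Tdg (-0.042 to 0.098). In controls they did from 4 to 7 h for Uhrf1 (-0.044 to 0.27), Tet1 (-0.18 to 0.21), Tet2 (-0.050 to 0.24), and Tet3 (-0.12 to 0.65), from 7 to 10 h for Dnmt1 (-0.059 to 0.13), Dnmt3a (-0.17 to 0.20), Dnmt3l (-0.11 to 0.090), Uhrf1 (-0.0030 to 0.20), Tet1 (-0.085 to 0.31), Tet2 (-0.21 to 0.080), Tet3 (-0.59 to 0.17), and Tdg (-0.14 to 0.18), and from 4 to 10 h for Tet2 (-0.038 to 0.097) and Tet3 (-0.18 to 0.29). Between 4 h and 7 h effects they did for Dnmt3l (-0.15 to 0.044), Tet1 (-0.86 to 0.028), and Tdg (-0.45 to 0.11), and between 7 h and 10 h for Tdg (-0.032 to 0.29).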
